A study of Mus musculus with 11 samples.

Results

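Neutral fat is kept in cells as lipid droplets, and 10 genes that coat, fill, empty or feed these droplets were followed in the mouse hippocampus after insulin was given through the nose. They are Plin2, Plin3 and Hilpda at the droplet surface, Dgat1 and Dgat2 for triglyceride synthesis, Pnpla2, Lipe and Mgll for its breakdown, and Lpl and Angptl4 for the uptake of fatty acids from lipoproteins. The rule names the genes by role and uses no measured value, although it was written with earlier results of these data known. All 10 symbols were found among the 46202 rows of the deposited table. Of these, 9 passed the filter on low values and were tested. Lipe, at a mean log2 signal of -8.77 against a limit of -8.66, did not.

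Hippocampal RNA came from male C3-C57B1/6J mice of 2 to 3 months, housed singly, and was read as 11 total RNA libraries. The 3 control libraries are called saline here, after their titles, although the treatment field says untreated; their time is given as 0 min. The insulin groups received 2.4 IU per nare and were sampled at 15 min (2 libraries, replicates 1 and 3), 1 h (3 libraries) and 6 h (3 libraries); replicate 2 of 15 min was not analysed here. All mice were under isoflurane when the brain was taken. Since every saline library carries the time 0 min, the effect of insulin and that of time since dosing cannot be told apart. The treatment protocol gives 3 animals per time point and does not tie a library to an animal in so many words, so a p-value here covers library-to-library spread.

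A lipid droplet has a core of triglyceride and sterol ester inside a single phospholipid layer, which perilipins cover. The DGAT enzymes add the last fatty acid to diacylglycerol. Stored triglyceride is then cut in steps, by adipose triglyceride lipase (encoded by Pnpla2), hormone-sensitive lipase (Lipe) and monoacylglycerol lipase (Mgll). In adipose tissue insulin is known to restrain this breakdown and to raise lipoprotein lipase activity. In brain, droplets are found mostly in glia and ependyma, and monoacylglycerol lipase is best known there for clearing the endocannabinoid 2-arachidonoylglycerol.

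The values are log2 signals that the authors brought to the same distribution in every library: the median of -3.2 and the maximum of 16 are shared by all 11. Each of these medians covers the genes with a value in that library. Over rows with a value in every library, the median was -1.94 to -1.86 with saline and -2.09 and -2.03 at 15 min. It was -2.07 to -1.99 at 1 h and -1.98 to -1.83 at 6 h. Where equal medians are named below, the medians of these rows were made equal. Each library held a value for 32037 to 33653 genes, and sequencing depth is unknown. The 18S ribosomal RNA row, Rn18s-rs5, differed by group, at 13.05 to 16 in log2 signal with saline, 9.67 to 10.51 at 15 min and 1 h, and 11.04 to 12.19 at 6 h. Its part in the differences between groups given below was not tested. Whether the signals are scaled by gene length is not given in the sources used here, so levels are compared between libraries and not between genes. Markers of the tissue were present in every library, with 9 of 9 astrocyte, 7 of 7 hippocampal pyramidal neuron and 5 of 5 dentate granule neuron genes. Striatal markers also had a value in every library (6 of 6, mean log2 signal -0.71 to 0.69). Of 6 adipocyte markers 2 were present in every library; Adipoq lacked a value in 1 library and Cidec in 4. Because the tissue is a mixture, fewer cells of a type and less RNA per cell cannot be told apart.

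No member of the group passed the test at any time. At 15 min 0 of 9 members had an adjusted p under 0.05 by limma, against 0.239% of all rows. At 1 h the count was 0 of 9 against 0.877%, and at 6 h it was 0 of 9 against 0% of rows. With no adjustment, a p under 0.05 was reached by 0 members at 15 min (15.1% of all rows), by 1 at 1 h (Plin3, 15.7%) and by 1 at 6 h (Pnpla2, 6.98%). The median log2 change of the 9 members was -0.18 at 15 min beside -0.14 for all rows tested. It was -0.1 beside -0.11 at 1 h and 0.09 beside -0.04 at 6 h.  For 7, 8 and 8 of the 9 members at the 3 times, the 95% interval of the change stayed within 2-fold in either direction. It stayed within 1.5-fold for 3, 5 and 5 of them.

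**Figure D1:**
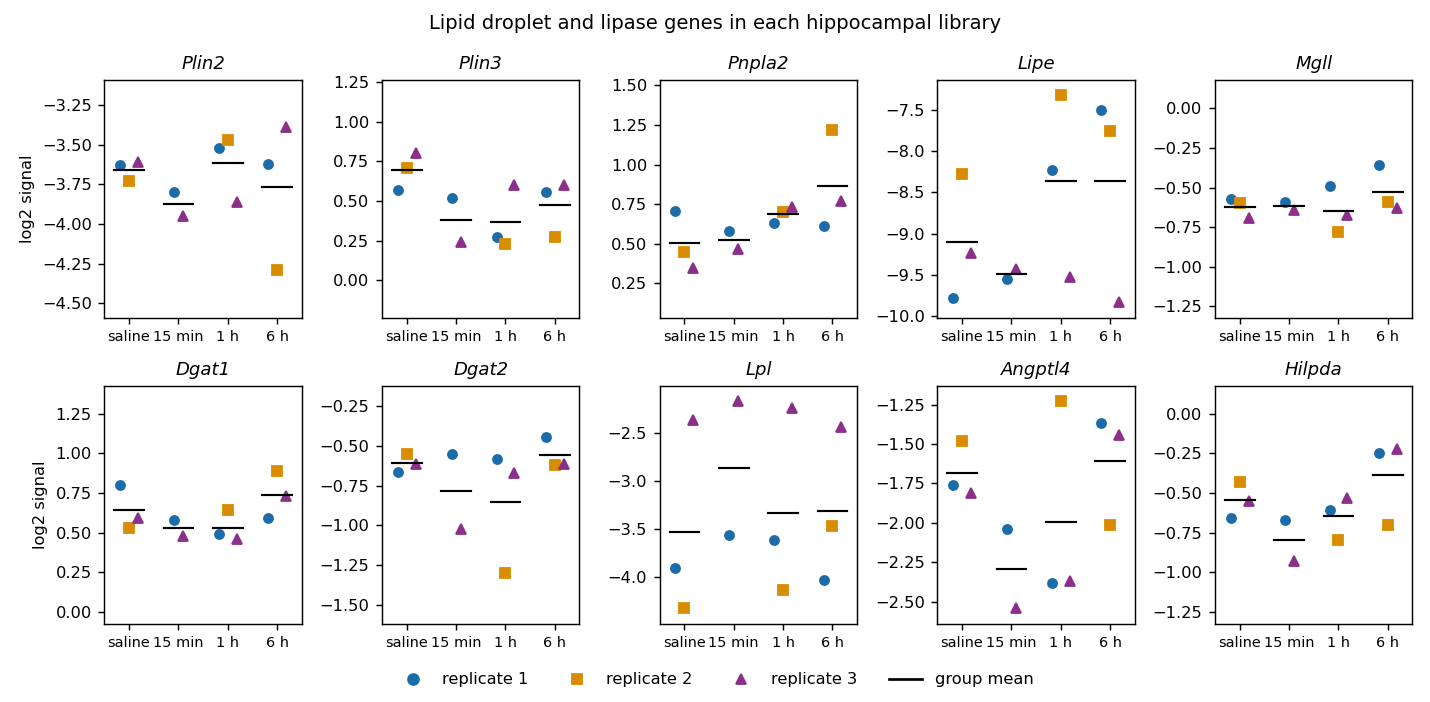
Log2 signal (y axis) of the 10 genes in each of the 11 libraries, by group (x axis), with the marker shape and colour giving the replicate number and the bar the group mean; each panel has its own y range. The groups overlap in most panels, and the 4 replicate 3 libraries of Lpl sit between -2.44 and -2.17, above all the others.

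Plin2 encodes the perilipin that coats droplets in most cells other than adipocytes, and its protein is stable only when bound to a droplet. It lies on chromosome 4, 86626910 to 86670217 (GRCm38.p6, minus strand). Its log2 signal was -3.63, -3.73 and -3.61 in the 3 saline libraries and -3.80 and -3.95 at 15 min. It was -3.52, -3.47 and -3.86 at 1 h and -3.62, -4.29 and -3.39 at 6 h. The saline libraries lay within a narrow band, both 15 min libraries lay below it, and the 6 h group held both the lowest and the highest value of all 11. The log2 change from saline was -0.22 at 15 min (SE 0.26, limma adjusted p = 0.728), with a sign that turned after another normalization (cyclic loess, 0.04). At 1 h it was 0.04 (SE 0.24, adjusted p = 0.95) and at 6 h -0.11 (SE 0.24, adjusted p = 0.909).

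The value of Plin2 at 6 h rested on which library was read. Without 6 h replicate 2 the 6 h change was 0.15, the highest of the runs that left out a library, and the lowest was -0.3. The 5 genes whose pattern over the 11 libraries was most like that of Plin2, among 16144 rows ranked by Pearson's r, were Zfp763 (0.963), Cct8 (0.957), Kin (0.955), Araf (0.955) and Bex4 (0.954). Each of these 5 also had its lowest value in 6 h replicate 2, for example -0.22 for Zfp763 against 0.09 to 0.44 in the other libraries. Their likeness to Plin2 is given as a description, and the points share that library.

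Plin3, on chromosome 17 (56278962 to 56290511, minus strand), encodes a perilipin that is soluble in the cytosol and binds small, new droplets. It had the smallest p of the group in the pooled comparison of insulin with saline. The saline libraries read 0.57, 0.71 and 0.80 in log2 signal. Those at 15 min read 0.52 and 0.24, those at 1 h 0.27, 0.23 and 0.60, and those at 6 h 0.56, 0.27 and 0.60. Both 15 min libraries lay below all saline libraries, whereas 1 library at 1 h and 1 at 6 h lay above the lowest of them. The log2 change was -0.31 at 15 min (SE 0.15, adjusted p = 0.36), -0.33 at 1 h (SE 0.13, 0.798-fold, adjusted p = 0.268) and -0.22 at 6 h (SE 0.13, adjusted p = 0.726), all by limma.

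With all 8 insulin libraries taken as 1 group, the log2 change of Plin3 was -0.28 (95% interval -0.51 to -0.05). Its limma p was 0.0198 with no adjustment and 0.337 after adjustment over all rows. In the same comparison 0.119% of rows had an adjusted p under 0.05, and 12.1% had an unadjusted one. The median log2 change of all rows tested there was -0.09. The sign stayed negative at each time when any 1 library was left out, with a range of -0.45 to -0.17 at 15 min. These comparisons share their saline libraries and are not independent of each other.

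Hilpda encodes a small droplet protein that is induced by hypoxia and fatty acids and inhibits adipose triglyceride lipase. It lies on chromosome 6, 29272488 to 29275449, on the plus strand. With saline its log2 signal was -0.66, -0.43 and -0.55, at 15 min -0.67 and -0.93, at 1 h -0.61, -0.80 and -0.53, and at 6 h -0.25, -0.70 and -0.22. The higher of the 15 min libraries lay only just below the lowest saline library, and at 6 h replicates 1 and 3 were the highest of all 11 while replicate 2 was among the low ones. Its log2 change was -0.26 at 15 min (SE 0.16, limma adjusted p = 0.478), -0.1 at 1 h (SE 0.14, adjusted p = 0.775) and 0.16 at 6 h (SE 0.14, adjusted p = 0.784). The 1 h value turned to 0.04 when the libraries were brought to equal medians.

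Promoter sequence was read for Hilpda and the other members with an entry in the RefSeq promoter table of GRCm38.p6, which spans 250 bases before to 50 after a start. There were 9 entries for 6 members (Plin2, Plin3 and Pnpla2 with 1 each, and Lipe, Mgll and Hilpda with 2 each). The core of the hypoxia response element, ACGTG, was searched on both strands, together with its variant GCGTG, the E-box CACGTG (which contains ACGTG), the FOXO site GTAAACA, the palindromic glucocorticoid response element and the DR1 element of PPAR, within the 250 bases before each start. The matches to ACGTG are shown because Hilpda is a textbook hypoxia gene, with capitals marking the core or the E-box around it.
Hilpda, chr6:29272573-29272597, plus strand: tggccagcggACGTGccccagggcg
Lipe, chr7:25396128-25396152, minus strand: cagggacgacCACGTGagggggcgg
Mgll, chr6:88724358-88724382, plus strand: gggccgggcaCACGTGgggccccgg
Mgll, second start, chr6:88724536-88724560, plus strand: tgctcggggaACGTGacagcggcgc
Distances are from the start of each entry, which for Hilpda and Lipe is a start inside the gene span given for them, so that both matches also lie inside that span. In Hilpda the core starts 43 bases before that start, in Lipe the E-box starts 155 bases before it, and in Mgll the distances are 44 and 158 bases for its 2 starts, of which the first opens the gene span. ACGTG was found in 4 of the 9 entries (1 of Hilpda, 1 of Lipe and both of Mgll) and in 16.6% of all 32851 promoters of the same length. The E-box CACGTG was found in 2 of 9, of Lipe and Mgll, against 6.02%. GCGTG was found in 5 of 9, against 28.2%. GTAAACA was present in 2 entries, of Lipe and Mgll, against 3.17%. The glucocorticoid and PPAR elements, present as full consensus in 0.00913% and 0.0335% of promoters, had 0 matches among the 9. A match is a string of letters, and none of these members passed the test at any time.

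Genes of the hypoxia response were read from a list of 12, all tested. None had an adjusted p under 0.05 at any time, and the list's median change was 0.03, 0.01 and 0.02 at 15 min, 1 h and 6 h. The smallest p at each time belonged to Ddit4, an inhibitor of mTORC1, with log2 changes of 0.66 (limma adjusted p = 0.119), 0.68 (adjusted p = 0.0539) and 0.61 (adjusted p = 0.467). Slc2a1, the glucose transporter of the blood-brain barrier, followed at 15 min and 1 h with 0.63 (adjusted p = 0.142) and 0.65 (adjusted p = 0.0688). The signal of Ddit4 was 2.95, 2.92 and 3.32 with saline and 3.55 to 3.89 in the 8 insulin libraries, so that the groups did not overlap. Of all rows, 6.96% lay wholly above saline at 15 min, 6.27% at 1 h and 4.31% at 6 h. For Hilpda the 15 min libraries lay below saline, and the 1 h and 6 h groups overlapped with it.

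Dgat1, on chromosome 15 (76502012 to 76512021, minus strand), encodes the diacylglycerol acyltransferase of the endoplasmic reticulum, which can protect it from an excess of fatty acids. Its log2 signal was 0.80, 0.53 and 0.59 with saline, 0.58 and 0.48 at 15 min, 0.49, 0.64 and 0.46 at 1 h, and 0.59, 0.89 and 0.73 at 6 h. All groups overlapped with saline. The whole span of the 11 libraries was 0.43 in log2, among the narrowest of the group. The changes were -0.11 at 15 min (SE 0.11, limma adjusted p = 0.692), -0.11 at 1 h (SE 0.1, adjusted p = 0.66) and 0.1 at 6 h (SE 0.1, adjusted p = 0.804). With equal library medians the first and second became 0.07 and 0.03.

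Dgat2, on chromosome 7 (99153663 to 99182713, minus strand), encodes the enzyme that also works at the droplet surface and uses newly made fatty acids. Saline libraries read -0.66, -0.55 and -0.61 in log2 signal, those at 15 min -0.55 and -1.02, at 1 h -0.58, -1.30 and -0.67, and at 6 h -0.44, -0.62 and -0.61. Only 15 min replicate 3 and 1 h replicate 2 stood clearly below the rest. The log2 change was -0.18 at 15 min (SE 0.21, limma adjusted p = 0.712), -0.25 at 1 h (SE 0.19, adjusted p = 0.571) and 0.05 at 6 h (SE 0.19, adjusted p = 0.948). Without 15 min replicate 3 the first became 0.05.

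Pnpla2, on chromosome 7 (141455188 to 141460743, plus strand), encodes the lipase that takes the first fatty acid from stored triglyceride, and FOXO1, which insulin signalling restrains, is known to drive it in adipocytes. It was the only member with an unadjusted p under 0.05 at 6 h. Log2 signals were 0.71, 0.45 and 0.35 with saline, 0.58 and 0.47 at 15 min, 0.63, 0.70 and 0.73 at 1 h, and 0.61, 1.22 and 0.77 at 6 h. The highest saline library overlapped with every insulin group, and 6 h replicate 2 stood far above the rest. The log2 change was 0.02 at 15 min (SE 0.16, limma adjusted p = 0.961), 0.18 at 1 h (SE 0.15, adjusted p = 0.598) and 0.37 at 6 h (SE 0.15, 1.29-fold, adjusted p = 0.702). Without 6 h replicate 2 the 6 h change was 0.19 (adjusted p = 0.947).

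Lipe encodes hormone-sensitive lipase, which cuts diacylglycerol and sterol esters and is the classic target of insulin in fat cells. The gene lies on chromosome 7, 25379527 to 25398486, on the minus strand, and 4732471J01Rik overlaps it on the other strand; whether the counting used strand is not given in the sources used here. Its log2 signals were -9.78, -8.28 and -9.24 with saline, -9.55 and -9.43 at 15 min, -8.23, -7.32 and -9.53 at 1 h, and -7.50, -7.75 and -9.83 at 6 h. Values at 1 h and 6 h were thus split, with replicate 3 near the saline libraries and replicates 1 and 2 above the highest of them. Its within-group SD of 0.99 was larger than that of 97.1% of the rows compared. With no filter on low values the log2 changes were -0.4 (SE 0.81), 0.74 (SE 0.72) and 0.73 (SE 0.72) at 15 min, 1 h and 6 h, with limma adjusted p of 0.87, 0.71 and 0.82. At 1 h and 6 h the 95% interval ran from -0.88 to 2.35, wide enough to hold a sizeable change in either direction.

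Mgll, on chromosome 6 (88724412 to 88828360, plus strand), had the tightest values of the group. Its 11 log2 signals spanned 0.42, and its within-group SD of 0.12 was larger than that of only 20.1% of rows. With saline it read -0.57, -0.60 and -0.69, at 15 min -0.59 and -0.64, at 1 h -0.49, -0.78 and -0.67, and at 6 h -0.36, -0.59 and -0.63. All groups overlapped. The log2 change was 0 at 15 min (95% interval -0.26 to 0.26), -0.03 at 1 h (-0.26 to 0.20) and 0.09 at 6 h (-0.14 to 0.32). The limma adjusted p was 0.997, 0.934 and 0.819. The sign at 1 h turned to 0.06 after cyclic loess and to 0.11 with equal medians. The gene's span also holds Gm26588 and Gm43937 on the other strand and 3 predicted genes on its own, whose reads may be counted with it or apart from it.

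**Figure D2:**
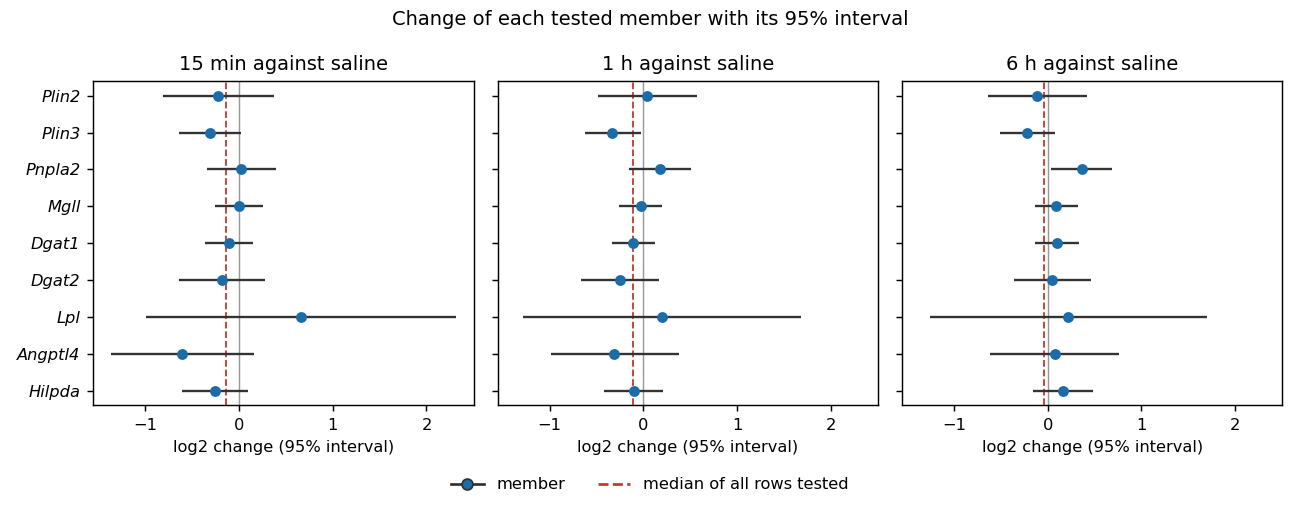
Log2 change from saline (x axis) of the 9 tested members at 15 min, 1 h and 6 h, with points for the estimate and bars for its 95% interval; the dashed line marks the median of all rows tested, -0.14, -0.11 and -0.04. Only the intervals of Plin3 at 1 h and of Pnpla2 at 6 h leave out 0, with no adjustment for the number of rows, and Lpl has the widest interval at each time.

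Lpl encodes lipoprotein lipase, which frees fatty acids from circulating lipoproteins at the vessel wall and, in brain, is made by neurons and microglia. It lies on chromosome 8, 68880555 to 68906932, on the plus strand. Saline libraries read -3.91, -4.33 and -2.36 in log2 signal, those at 15 min -3.57 and -2.17, at 1 h -3.62, -4.14 and -2.24, and at 6 h -4.04, -3.47 and -2.44. In every group replicate 3 was the highest library. The 4 replicate 3 libraries lay between -2.44 and -2.17 and the other 7 between -4.33 and -3.47, with no overlap. Within-group SD was 0.95, larger than that of 96.5% of rows.

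The 3 changes of Lpl were small beside that spread. They came to 0.66 at 15 min (SE 0.74, 95% interval -0.99 to 2.32, limma adjusted p = 0.703), 0.2 at 1 h (SE 0.66, -1.28 to 1.68, adjusted p = 0.921) and 0.22 at 6 h (SE 0.66, -1.26 to 1.7, adjusted p = 0.936). All of them changed sign in some run that left out 1 library. The 15 min group holds replicate 3 as 1 of its 2 libraries, whereas the other groups hold it as 1 of 3. Without 15 min replicate 3 the 15 min change was -0.04.

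Markers of hippocampal pyramidal neurons moved with Lpl from library to library. Their mean log2 signal over 7 genes was -1.2, -1.91 and -0.04 with saline, -1.27 and 0.16 at 15 min, -1.57, -1.86 and -0.14 at 1 h, and -1.52, -0.69 and -0.47 at 6 h. Replicate 3 was again the highest library of every group. The 7 markers did not all follow this order: replicate 3 was the highest library for 5 of 7 with saline, 7 of 7 at 15 min, 7 of 7 at 1 h and 4 of 7 at 6 h. Wfs1 read -0.58, -0.56 and -0.6 with saline, with replicate 3 the lowest, and Nptx1 at 6 h was highest in replicate 2 (2.85 against 1.4 and 2.33). Neurod6 and Crym had the widest swings. Neurod6, a transcription factor of these neurons, read -0.6, -2.07 and 2.55 with saline and -0.6 and 2.26 at 15 min. Crym, a thyroid hormone binding protein of the CA1 field, read -3.09, -4.88 and -0.17 with saline and -2.57 and 0.24 at 15 min.

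The pattern was not confined to pyramidal neurons. Of 17 marker lists, 5 had their highest mean in replicate 3 of every group: pyramidal neuron, interneuron, striatum, astrocyte and oligodendrocyte. Some leads over the next library were slight: for oligodendrocytes 4.21 against 4.2 at 15 min and 4.35 against 4.34 at 6 h, and for interneurons 1.45 against 1.44 at 6 h. By gene, replicate 3 was highest for 6 of 6 interneuron markers with saline but 1 of 6 at 6 h. For oligodendrocytes it was 7 of 7 with saline and 3 of 7 at 6 h, and for astrocytes 6 of 9 with saline and 3 of 9 at 15 min. The astrocyte means in replicate 3 were 3.07, 2.97, 3.02 and 3.09 against 2.8 to 2.95 in the other 7 libraries, and the striatal mean was -0.18, 0.2, 0.69 and 0.25 in replicate 3 of saline, 15 min, 1 h and 6 h, against -0.71 to 0.11 in the other 7 libraries. Dentate granule markers showed no such order, with -0.25, -0.76, -1.08 and -1.05 in replicate 3 and -1.69 to 0.05 in the others. Microglial markers, the other known source of Lpl in brain, had means of -0.32, -0.77, -0.88 and -0.84 in replicate 3 and of -1.06 to -0.4 in the others. No marker of the pyramidal, interneuron, striatal, dentate, astrocyte or oligodendrocyte lists passed the test at any time. The part of these cell types or regions in the values of Lpl was not tested.

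**Figure D3:**
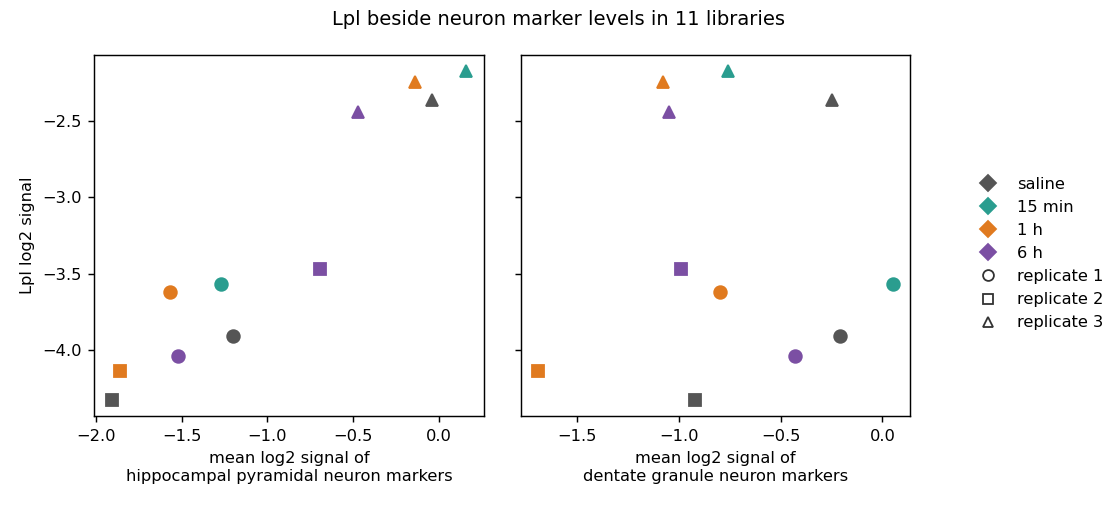
Log2 signal of Lpl (y axis) against the mean log2 signal of pyramidal neuron markers (left, x axis) and dentate granule markers (right, x axis) in 11 libraries, with colour for the group and shape for the replicate number. The triangles, replicate 3 of each group, lie apart at -2.44 to -2.17 for Lpl and at -0.47 to 0.16 for the pyramidal list, while on the dentate axis they lie among the others.

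The 5 genes most like Lpl over the 11 libraries were Kcnv1 (Pearson's r 0.983), Tnfaip8l3 (0.974), Lmo3 (0.968), Trpc4 (0.966) and Epyc (0.963). Each had its higher values in the replicate 3 libraries, so the measure rests on the split between these 4 and the other 7. For Kcnv1, a potassium channel subunit, the 4 read -0.14, 0.03, 0.16 and -0.46, and the other 7 read -2.19 to -1.1. No p is given for a likeness of this kind.

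Angptl4 encodes a secreted inhibitor of lipoprotein lipase that fasting, PPAR ligands, glucocorticoids and hypoxia are known to induce. It lies on chromosome 17, 33774900 to 33781575, on the minus strand, and had the most negative log2 change of the group at 15 min. Its log2 signal was -1.76, -1.48 and -1.81 with saline, -2.04 and -2.54 at 15 min, -2.38, -1.23 and -2.37 at 1 h, and -1.37, -2.01 and -1.44 at 6 h. Both 15 min libraries and 1 h replicates 1 and 3 lay below every saline library, whereas 1 h replicate 2 was the highest of all 11. The change was -0.61 at 15 min (SE 0.34, 95% interval -1.37 to 0.16, 0.656-fold, limma adjusted p = 0.434). At 1 h it was -0.31 (SE 0.31, adjusted p = 0.68) and at 6 h 0.08 (SE 0.31, adjusted p = 0.953).

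Vessel markers were read beside Angptl4, and their list means were lower at 15 min and 1 h than with saline. The median log2 change of all rows was also negative at these times, at -0.14 and -0.11. In the saline libraries the mean log2 signal of 6 endothelial genes lay between -0.66 and -0.31; at 15 min it lay between -1.01 and -0.8, at 1 h between -0.92 and -0.88 and at 6 h between -0.91 and -0.51. For 6 pericyte and smooth muscle genes the mean lay between -0.72 and -0.47 with saline, between -1.15 and -0.96 at 15 min, between -1.06 and -0.94 at 1 h and between -1.04 and -0.6 at 6 h. Not every gene followed its list. Flt1 read -2.35, -2.89 and -2.78 with saline, -2.37 and -2.24 at 15 min, and -2.42 to -2.18 at 1 h. Rgs5 at 15 min (-0.94 and -0.87) lay within its saline values (-0.64, -1.03 and -0.96). All 12 genes had a value in every library and none passed the test. Their part in the values of Angptl4 was not tested.

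Other targets of these inducers were read beside Angptl4. In a list of 14 glucocorticoid and PPAR responsive genes, 13 of them tested, 3 rose at 15 min and 5 at 1 h, with no falls, and 0 passed at 6 h; with 1 library left out, 0 to 3 rose at 15 min and 1 to 5 at 1 h. Of all 27653 rows tested at 15 min, 12 rose and 54 fell, and of 27706 at 1 h, 36 rose and 207 fell. The 3 of the list at 15 min were Pdk4, Fkbp5 (1.1 in log2, limma adjusted p = 0.0405) and Sgk1 (1.13, adjusted p = 0.0468). At 1 h Fkbp5 (0.98, adjusted p = 0.0209) and Sgk1 (1.01, adjusted p = 0.0239) passed again, with Klf15 (0.67, adjusted p = 0.0118) and Zbtb16 (1.72, adjusted p = 0.0448). Pdk4, which restrains glucose oxidation and is also a PPAR target, rose by 1.27 in log2 at 15 min (limma adjusted p = 0.0201) and by 1.18 at 1 h (adjusted p = 0.00867). Its call at 15 min was lost without saline replicate 1 or 2 (adjusted p = 0.1 and 0.082) and without 15 min replicate 1 or 3 (0.088 and 0.19), and its call at 1 h held without any 1 library. At 6 h its change was 0.18 (adjusted p = 0.768). The list was known from earlier results on these libraries to hold rising genes and is no independent evidence. Genes with a pattern like that of Angptl4 were Aurkb (Pearson's r 0.909), Slc35b1 (0.894), Dmgdh (0.882), Rab42 (0.881) and Slc25a34 (0.878).

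Complete separation from saline was common in the table at large. At 15 min 4 of 9 members (Plin2, Plin3, Angptl4 and Hilpda) had both insulin libraries below all 3 saline libraries, as did 31.1% of all rows tested. No member lay above saline at that time, against 6.96% of rows. At 1 h and 6 h all 9 members overlapped with saline; 21.5% and 8.78% of rows lay wholly below it, and 6.27% and 4.31% wholly above.

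Between insulin times, which share no saline library, the test again passed no member. From 15 min to 1 h it was 0 of 9, against 0% of rows (with no adjustment 0 of 9, against 3.49%). From 1 h to 6 h it was 0 of 9, against 0.0108% (with no adjustment 0 of 9, against 11.1%). From 15 min to 6 h it was 0 of 9, against 0.00723%, and 1 member had an unadjusted p under 0.05, against 14.2% of rows. That member was Hilpda, with a log2 change of 0.41 (SE 0.16, 95% interval 0.06 to 0.77, limma adjusted p = 0.291). Angptl4 changed by 0.68 over the same span (SE 0.34, adjusted p = 0.4), Pnpla2 by 0.34 (adjusted p = 0.379) and Dgat1 by 0.21 (adjusted p = 0.439). All 6 h libraries lay above both 15 min libraries for these 3 genes, by narrow margins, as for 22.3% of all rows. No member lay wholly lower at 6 h than at 15 min (7.08% of rows), and Hilpda in 6 h replicate 2 lay among the 15 min values. From 15 min to 1 h Pnpla2 alone lay wholly higher, against 10.9% of rows, and none wholly lower, against 6.42%. From 1 h to 6 h all 9 overlapped, against 13.3% of rows wholly higher and 3.17% wholly lower. A test of any difference among the 4 groups gave adjusted p of 0.469 to 0.921 for the members by limma's F test, with 0 of 9 passing against 0.365% of rows.

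Other genes of the same pathway were read from 4 lists of 55 genes, all in the table, of which 49 were tested. At each of the 3 times 0 rose and 0 fell. An unadjusted p under 0.05 was reached by 4, 3 and 2 of the 49, against 15.1%, 15.7% and 6.98% of all rows. By sign 15 were higher and 34 lower at 15 min, 21 and 28 at 1 h, and 23 and 26 at 6 h, with medians of -0.09, -0.02 and -0.01 beside -0.14, -0.11 and -0.04 for all rows. Cidec, Aadac, Gpihbp1, Angptl8 and Apoc2 were among those left out by the filter, which ranks a missing value as the table's minimum; each lacked a value in 4 or more libraries. Gpihbp1, the protein that holds lipoprotein lipase on capillaries, had a value in only 4 of the 11 libraries.

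**Figure D4:**
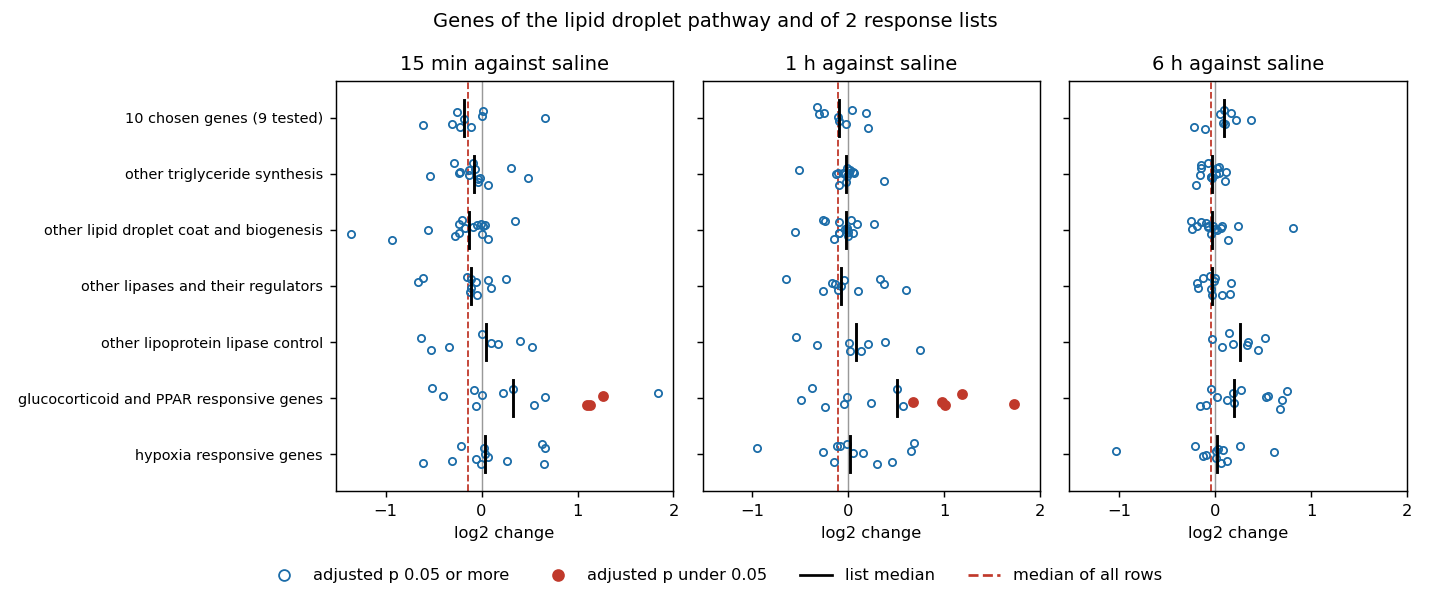
Log2 change from saline (x axis) of each tested gene in the 10 chosen genes, 4 further lists of the pathway and 2 response lists (rows) at 15 min, 1 h and 6 h; filled points have an adjusted p under 0.05, the black bar is the list median and the dashed line the median of all rows. Filled points occur only in the glucocorticoid and PPAR list, 3 at 15 min and 5 at 1 h, and medians of the pathway lists lie within 0.3 of 0.

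Among lipases and their regulators (12 genes, 11 tested), Pnpla3 had the smallest p at 15 min and 1 h. It encodes a droplet protein related to adipose triglyceride lipase, whose transcript insulin and SREBP1c are known to raise in liver. Log2 signals were -0.49, -0.64 and -0.76 with saline, -1.12 and -1.46 at 15 min, between -1.38 and -1.14 at 1 h, and -0.64, -0.98 and -0.82 at 6 h. All 5 libraries at 15 min and 1 h lay below all saline libraries, while the 6 h libraries overlapped with them. Of all rows, 31.1% lay wholly below saline at 15 min and 21.5% at 1 h. The log2 change was -0.66 at 15 min (SE 0.15, limma adjusted p = 0.111), -0.65 at 1 h (SE 0.13, adjusted p = 0.0575) and -0.18 at 6 h (SE 0.13, adjusted p = 0.747). The 1 h value passed without 6 h replicate 2 (adjusted p = 0.039) and with a stricter filter on low values (0.042). It did not pass after cyclic loess (limma adjusted p = 0.11), with equal medians (0.12) or without saline replicate 1 (0.21). Abhd5, the co-activator of adipose triglyceride lipase, and its inhibitor G0s2 had changes of -0.05 (adjusted p = 0.854) and 0.33 (adjusted p = 0.6) at 1 h.

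In triglyceride synthesis (14 genes, all tested), Gpat2, an acyltransferase of the mitochondrial outer membrane, had the smallest p at 15 min and 1 h. Its log2 signal lay between -2.21 and -2.06 with saline and was -2.5 and -2.83 at 15 min. It lay between -2.78 and -2.47 at 1 h and between -2.17 and -2.15 at 6 h. The 15 min and 1 h libraries lay below those of saline and 6 h, with changes of -0.54 (limma adjusted p = 0.164) and -0.52 (adjusted p = 0.104), and of -0.04 (adjusted p = 0.949) at 6 h. Lying wholly below saline was common in the table, at 31.1% of rows at 15 min and 21.5% at 1 h. In droplet coat and biogenesis (17 genes, 16 tested), Plin4, a perilipin with long repeats, had the smallest p at 6 h. It read 2, 1.36 and 2.22 with saline and 2.64, 2.44 and 2.93 at 6 h, a change of 0.81 (SE 0.21, adjusted p = 0.576). Bscl2, which encodes seipin, and Aup1 had changes of -0.24 (adjusted p = 0.194) and -0.28 (adjusted p = 0.203) at 15 min.

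In the control of lipoprotein lipase and its substrates (12 genes, 8 tested), no change had an unadjusted p under 0.05. At 15 min Apoc1, an apolipoprotein that inhibits lipoprotein lipase, stood at -0.53 (limma adjusted p = 0.421). At 1 h Vldlr, a receptor for triglyceride-rich lipoproteins, stood at 0.75 (SE 0.37, adjusted p = 0.36), and at 6 h Cd36, a fatty acid transporter, at 0.52 (SE 0.33, adjusted p = 0.731). Both rows were weak, at -7.54 to -6.39 in log2 signal for Vldlr and -6.91 to -5.73 for Cd36, beside a library median of -3.2. The receptor Lrp1 had changes of 0.4, 0.38 and 0.34 at the 3 times, with adjusted p of 0.549, 0.533 and 0.755.

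The members were also compared with each other. Over the 11 libraries the highest Pearson's r of any pair was 0.72 for Pnpla2 and Dgat1, where Spearman's rho was 0.45 and both genes had their highest value in 6 h replicate 2. Mgll and Dgat2 followed with 0.7 (rho 0.66), then Dgat2 and Hilpda with 0.67 (rho 0.64) and Plin3 and Hilpda with 0.64 (rho 0.78). The most negative pairs were Lipe and Lpl with -0.64 (rho -0.46) and Lpl and its inhibitor Angptl4 with -0.54 (rho -0.65); the 4 replicate 3 libraries stand apart for Lpl in both. These are descriptions over libraries that share their groups, with no test.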

How the data were processed

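Hippocampal RNA libraries were deposited as 1 table of log2 signals per gene symbol. The log base is read from the span of the values. Per the submitters' processing notes, bcl2fastq, Partek 6.7 and GRCm38 were used; the sources used here give no aligner, counter or depth. The deposited log2 values share 1 distribution across libraries, and a mark for no value was treated as missing in every test. Columns were matched to samples by name.

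The members and lists were chosen with earlier results of these data known. To filter on low values, a missing value counted as the table's minimum, and the lowest 40% of rows by mean (below -8.66) were dropped; this kept 27721 of 46202 rows, 1950 with a missing value. A 4-group linear model over all 11 libraries was fitted with limma 3.58.1 (R 4.3.3, empirical Bayes with trend, two-sided), adjusted by Benjamini-Hochberg at 0.05 over all rows tested. A fold is 2 raised to the difference of means. All members are named; of each other list, the genes past the threshold were taken or, where none passed, those with the 2 smallest p, not all of which are reported, and others were added for their role after their values were seen. Likeness is Pearson's r over rows with a value in every library. Old symbols were matched through RefSeq synonyms (Gm6484 for Angptl8), and positions are of RefSeq GRCm38.p6.

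Tested on simulated data, the 1 h comparison recovered 47 of 100 genes changed by 1 in log2 and 73 of 100 changed by 2 among 27706 rows, with 10 false calls. At 15 min the numbers were 49, 85 and 6 of 27653 rows, and at 6 h 53, 77 and 11 of 27707. The simulated noise was normal and independent between libraries, with each row's own mean and spread. It thus held no pattern shared between libraries and no offset between groups. The changed rows were drawn at random for each comparison, among rows with a value in every library. The counts therefore do not give the power for the members. Alternatives were cyclic loess, equal medians, no or a stricter filter (60%), rows with all values, an offset of 0.1, no trend, only the 2 groups compared, a replicate block and leaving out each library.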

Additional observations from a re-analysis of the deposited data

Results flagged for a closer look

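Among the 8 insulin libraries, Pnpla2 in 6 h replicate 2 stood apart from the others at a log2 signal of 1.22, with the next library at 0.77. The gap was 0.595 of the whole range, above the limit of 0.526 that Dixon's test sets for 8 values. All 10 members were looked at in this way, and chance alone marks about 1 in 20 such groups. Without that library the 6 h change of Pnpla2 was 0.19 in place of 0.37 in log2. The same library held the lowest value of Plin2 (-4.29) and the highest of Dgat1 (0.89) of all 11 libraries, and neither passed the limit.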

How the results depend on the processing

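Each of the 20 alternatives left 0 members past the threshold in every comparison where it was run. The lowest adjusted p of a member was 0.165, for Plin3 at 1 h. Of 540 changes recomputed, 25 took the other sign, and 12 of the 27 changes kept 1 sign throughout. The cause of a changed sign was not tested. After cyclic loess the change was 0.04 for Plin2 at 15 min and 0.06 for Mgll at 1 h. With equal medians it was 0.07 (15 min) and 0.03 (1 h) for Dgat1, and 0.11 for Mgll and 0.04 for Hilpda at 1 h. Leaving out 1 library each, the changes at 15 min ranged from -0.05 to 0.13 for Pnpla2, -0.03 to 0.03 for Mgll, -0.42 to 0.05 for Dgat2 and -0.04 to 1.36 for Lpl. At 1 h they ranged from -0.03 to 0.17 for Plin2, -0.1 to 0.04 for Mgll and -0.35 to 0.78 for Lpl. At 6 h they ranged from -0.3 to 0.15 for Plin2, -0.01 to 0.08 for Dgat2, -0.22 to 0.8 for Lpl and -0.04 to 0.28 for Angptl4.

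The whole table moved more. At 15 min the 66 rows called became 31 after cyclic loess, 1 with only the 2 groups compared, 114 with no trend and 5 to 103 with 1 library left out. At 1 h the 243 became 136 after cyclic loess, 138 with only the 2 groups compared and 42 to 477 with 1 library left out. At 6 h it was 0 throughout. Of the other pathway genes at 1 h, 0 passed with all libraries, and 1, Pnpla3, with the stricter filter, and 0 to 1 with 1 library left out.

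Replicate numbers were not taken to pair the samples in the main fit. Of 15 same-numbered pairs, r ran from -0.06 to 0.24 and 5 exceeded 0.1, and 6 of 11 libraries correlated best with their own number. Whether same-numbered libraries share a source was not tested. With the replicate block 41 rows were called at 15 min, 1 other pathway gene (Pnpla3) at 1 h, and the change of Mgll at 15 min was -0.03. The SE of Lpl at 1 h went from 0.66 to 0.23 with no call. Depth is unknown, so counting error cannot be set apart from the spread between libraries.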
